A study of Homo sapiens with 72 samples.

Results

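The signal-adaptor and cytoskeleton genes LCP2, PLEK, DOCK10, AHNAK, SH3BGRL3, TNS1 and ANKRD2 were followed across histone marks in 3 human B-cell malignancy lines with and without bryostatin. These are 7 of 20033 protein-coding genes of GENCODE 44 on hg38. They were chosen by their H3K4me2 or H3K4me3 peaks in bryostatin-treated against untreated cells of these same libraries. The lines taken as used in the choice were Raji for LCP2, REH for PLEK, DOCK10 and TNS1, REH and NALM6 for SH3BGRL3, and REH and Raji for ANKRD2. The line on which AHNAK was chosen is not known, so all 3 lines were treated as used for it. In those lines their change is given as a description with no test. Tests are given for a gene in a line on which it was not chosen, for H3K27me3, and for differences between untreated lines neither of which was used in its choice.

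The libraries were made by Cut&Tag, in which an antibody bound to a histone mark directs a transposase to cut and tag the DNA around it. Raji is an Epstein-Barr virus-positive Burkitt lymphoma line, and NALM6 and REH are B-cell acute lymphoblastic leukaemia lines. Each line was left untreated or was kept overnight, as the labels give it (the study's supplement gives a full day), with 1 nM bryostatin, and 3 replicates of each were profiled for H3K4me2, H3K4me3 and H3K27me3, giving 54 libraries in 18 groups. The labels name the replicates only by number, so the p-values measure the spread between these samples, which may be technical. Each line is 1 established culture with no further allele or agent named.

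H3K4me3 marks active and poised gene starts. H3K4me2 covers starts and enhancers, and H3K27me3 is the Polycomb mark of repressed genes. Bryostatin is a macrocyclic lactone that binds the diacylglycerol site of protein kinase C. That kinase acts downstream of the B-cell receptor, where phospholipase C makes diacylglycerol, and it phosphorylates several cytoskeleton-linked proteins. LCP2 encodes SLP-76, an adaptor that assembles phospholipase C and VAV after receptor engagement, and PLEK encodes pleckstrin, a major protein kinase C substrate of platelets and leukocytes. DOCK10 activates the small GTPases CDC42 and RAC1, AHNAK is a giant scaffold protein at the plasma membrane, SH3BGRL3 is a small thioredoxin-like protein, TNS1 (tensin) ties integrins to actin, and ANKRD2 is an ankyrin-repeat protein of muscle.

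The name of the set, genes raised by bryostatin, described only some of its members. H3K4me2 at the start of LCP2 in Raji and at the internal start of PLEK in REH, and H3K4me3 at the start of AHNAK in REH, were higher in every treated library. These contrasts lie in lines taken as used in the choice, so they lend the name no support. The H3K4me3 start region of TNS1 was lower in every treated REH library, and the H3K4me2 region at the distal AHNAK start was lower in every treated Raji library. As summed start signal the groups overlapped in both cases, with a lower treated mean for TNS1 and a higher one for AHNAK. The merged start regions of SH3BGRL3 moved little in Raji or REH, while its summed H3K4me2 start signal had a higher treated mean with overlapping groups. ANKRD2 had no H3K4me2 or H3K4me3 peak at its start or over its body in any library.

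The positions of the members on hg38 are chr5:170246233-170297815 (minus strand) for LCP2, chr2:68365282-68397453 (plus) for PLEK, chr2:224765090-225042468 (minus) for DOCK10, chr11:62433542-62556235 (minus) for AHNAK, chr1:26280086-26281522 (plus) for SH3BGRL3, chr2:217799588-218033982 (minus) for TNS1 and chr10:97572499-97583884 (plus) for ANKRD2. DOCK10 has 17 annotated starts, TNS1 20 and AHNAK 8, so a peak was assigned to a single start where this mattered.

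The promoters of the members with a treated-only or higher region at a start are shown first. RefSeq has no promoter for the internal PLEK start, so that of its 5′ start is given. Each runs from 250 bases before to 50 after a RefSeq start on hg38, 5′ to 3′ on the strand of the gene, and capitals mark a RUNX match (TGTGGT on either strand).
LCP2 promoter, chr5:170297728-170298027: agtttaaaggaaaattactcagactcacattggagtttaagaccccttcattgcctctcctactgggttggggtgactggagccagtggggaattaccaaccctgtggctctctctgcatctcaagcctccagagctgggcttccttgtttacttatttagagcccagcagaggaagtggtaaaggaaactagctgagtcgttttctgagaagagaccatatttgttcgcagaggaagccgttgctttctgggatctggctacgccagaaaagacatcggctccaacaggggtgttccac
PLEK promoter, chr2:68365032-68365331: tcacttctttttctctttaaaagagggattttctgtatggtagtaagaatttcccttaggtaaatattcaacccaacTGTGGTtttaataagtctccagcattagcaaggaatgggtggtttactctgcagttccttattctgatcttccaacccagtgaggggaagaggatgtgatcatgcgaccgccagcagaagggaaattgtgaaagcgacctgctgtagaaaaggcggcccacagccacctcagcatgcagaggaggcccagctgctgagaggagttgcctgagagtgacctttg
DOCK10 internal start, chr2:224947000-224947299: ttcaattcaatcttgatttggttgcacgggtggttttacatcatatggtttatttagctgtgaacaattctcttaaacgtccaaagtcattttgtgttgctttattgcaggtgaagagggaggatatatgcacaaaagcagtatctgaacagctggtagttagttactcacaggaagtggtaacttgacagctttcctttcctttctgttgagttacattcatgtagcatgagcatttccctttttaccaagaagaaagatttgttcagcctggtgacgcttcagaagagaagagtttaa
DOCK10 outermost start, chr2:225042419-225042718: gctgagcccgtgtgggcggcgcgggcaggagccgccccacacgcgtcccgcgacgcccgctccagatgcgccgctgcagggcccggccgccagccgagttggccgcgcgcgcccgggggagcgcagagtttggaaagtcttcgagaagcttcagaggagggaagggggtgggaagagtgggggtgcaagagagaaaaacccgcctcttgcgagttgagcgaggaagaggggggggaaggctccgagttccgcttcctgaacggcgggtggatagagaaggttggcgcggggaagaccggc
AHNAK promoter, chr11:62545777-62546076: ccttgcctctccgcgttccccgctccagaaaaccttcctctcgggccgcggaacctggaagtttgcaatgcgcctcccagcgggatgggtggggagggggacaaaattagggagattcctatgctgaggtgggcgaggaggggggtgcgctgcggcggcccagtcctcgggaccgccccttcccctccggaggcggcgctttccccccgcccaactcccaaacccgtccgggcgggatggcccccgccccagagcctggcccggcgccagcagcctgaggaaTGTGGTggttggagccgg
The promoters of LCP2, PLEK and the internal start of DOCK10 hold 5, 4 and 3 CG dinucleotides. Those of AHNAK, the outermost DOCK10 start and SH3BGRL3 hold 25, 33 and 37. A further DOCK10 promoter holds 5, the TNS1 promoters hold 6, 7, 7, 7 and 29, of which the last is the one with H3K4me3 in REH, and those of ANKRD2 hold 5 and 3. Among all 35116 RefSeq promoters of this length the median was 14, with 33.7% at 5 or fewer and 32% at 25 or more. This property was looked at after the peak values were seen and was not tested.

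Windows of 300 bases around the highest stretch of a peak are shown next for regions found in treated libraries and in no untreated one. They are on the plus strand of hg38, and capitals mark matches to the AP-1 letters TGANTCA, with 1 RUNX match (TGTGGT) in the last, both strands searched.
LCP2 start, Raji H3K4me2, chr5:170297021-170297320: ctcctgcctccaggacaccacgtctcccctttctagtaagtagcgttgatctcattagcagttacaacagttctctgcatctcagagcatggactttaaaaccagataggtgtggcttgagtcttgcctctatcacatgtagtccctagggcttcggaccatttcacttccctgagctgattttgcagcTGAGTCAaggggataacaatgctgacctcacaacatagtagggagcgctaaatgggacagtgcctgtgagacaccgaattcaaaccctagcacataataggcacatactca
TNS1 intron, REH H3K4me2, chr2:217928481-217928780: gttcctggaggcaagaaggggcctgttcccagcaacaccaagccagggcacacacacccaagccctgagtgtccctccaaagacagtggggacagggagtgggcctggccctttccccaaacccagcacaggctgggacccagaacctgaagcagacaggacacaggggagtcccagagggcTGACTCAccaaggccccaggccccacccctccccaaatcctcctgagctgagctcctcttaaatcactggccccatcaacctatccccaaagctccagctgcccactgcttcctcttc
UBTD1 intron upstream of ANKRD2, Raji H3K4me2, chr10:97543151-97543450: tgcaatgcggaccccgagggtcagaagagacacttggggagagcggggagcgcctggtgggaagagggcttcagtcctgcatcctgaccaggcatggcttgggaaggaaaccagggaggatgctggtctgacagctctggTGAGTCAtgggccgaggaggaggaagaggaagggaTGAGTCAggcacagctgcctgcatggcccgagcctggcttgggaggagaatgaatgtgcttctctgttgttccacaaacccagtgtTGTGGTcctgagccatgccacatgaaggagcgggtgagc
As a background, windows of this length around all peaks of a library were searched, whether or not untreated libraries had the peak. The AP-1 letters were found in 9.98% of them for the library that gave the LCP2 window. The share was 5.96% for the TNS1 window and 12.5% for the ANKRD2 window, and 7.71% for all promoters. Further windows of PLEK, DOCK10, AHNAK and the second LCP2 region, not printed, held none of the AP-1, RUNX (TGTGGT), ETS (CCGGAA) or CRE (TGACGTCA) letters. Some of them lie in regions also called in untreated libraries. That absence holds for the 300 bases only. The full PLEK, DOCK10 and AHNAK regions held 1 or 2 AP-1 matches and 1 to 4 RUNX matches. The second LCP2 region held 2 RUNX matches. A match is a match of letters only.

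**Figure D1:**
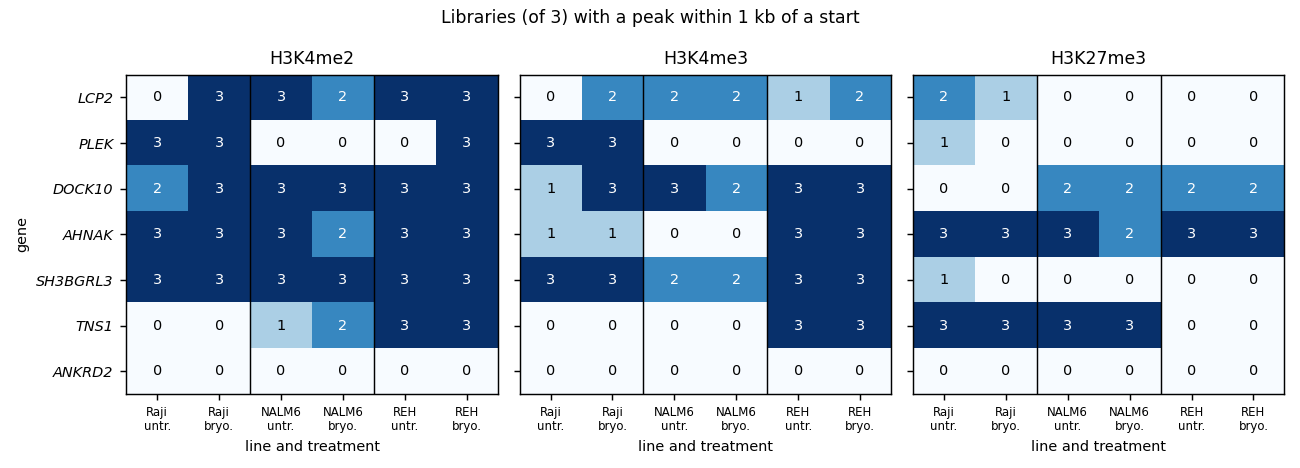
Number of libraries, of 3, with a peak within 1 kb of any start of each gene, by mark, line and treatment. LCP2 H3K4me2 went from 0 to 3 libraries in Raji and PLEK H3K4me2 from 0 to 3 in REH, while the ANKRD2 row holds 0 for H3K4me2 and H3K4me3 throughout.

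A gene's start signal was the summed signal of the peaks within 1 kb of any of its starts, in multiples of the median peak of the same library. For H3K4me2, 1 of 5 members with any start signal was higher in every treated than in every untreated library in Raji (LCP2), 1 of 5 in NALM6 (DOCK10) and 2 of 6 in REH (PLEK and LCP2). The same was true of 1.9%, 9.46% and 0.486% of all protein-coding genes with start signal. For H3K4me3 the counts were 2 of 5 in Raji (PLEK and DOCK10), 0 of 3 in NALM6 and 1 of 5 in REH (AHNAK), beside 0.831%, 0% and 0.248% of all genes. By this measure no member was lower in every treated library in any line for either mark, beside 0.0683%, 0.14% and 0.119% of all genes for H3K4me2 in Raji, NALM6 and REH and 6.93%, 0.359% and 0.308% for H3K4me3. Since the members were chosen on part of these contrasts, nothing is read from the counts that include a chosen gene (LCP2 in Raji, PLEK in REH, AHNAK in REH). Of the 26 exact two-sided permutation tests of gene signal in lines not used in the choice, over the start window or over the gene with 3 kb flanks, 5 reached 0.1, the smallest p that 3 against 3 libraries allow, so none could pass 0.05.

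LCP2 gained H3K4me2 at its start in Raji, the line on which it was chosen. In the region chr5:170296251-170299060, over the first exon, no peak was called in the 3 untreated libraries, and the treated libraries had totals of 0.436, 0.636 and 0.582 in multiples of the median region shared by the 6 libraries. The smallest totals called at all in the untreated libraries were 0.127, 0.447 and 0.229. Totals as low as the weakest treated one were thus called elsewhere in 2 of the untreated libraries but not in untreated replicate 2.

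A second region further upstream, chr5:170301761-170303960, was also called in the 3 treated Raji libraries alone, at 0.166, 0.193 and 0.392. Those totals lie below the smallest called total of 1 or more untreated libraries, so a region of that size may have gone uncalled there. H3K4me3 at the LCP2 start of Raji was absent in the untreated libraries and was 0.0921, 0.226 and 0 in the treated ones. Of all Raji H3K4me2 regions, 0.0904% were called in the 3 treated and in none of the untreated libraries.

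In REH, LCP2 carried H3K4me2 before treatment. Its start region, chr5:170292021-170299200, had totals of 1.7, 1.74 and 1.54 untreated and 1.93, 2.1 and 2.04 with bryostatin, so the groups did not overlap. On the log2 scale the change was 0.29 (SE 0.08), for which limma gave an adjusted p of 0.151, or 0.0643 when libraries of the same replicate number were paired (the block). An intragenic region, chr5:170275591-170281030, went from 1.79, 1.77 and 1.85 to 2.41, 2.31 and 2.16, an increase of 0.34 in log2 (SE 0.08) with a limma adjusted p of 0.0558, or 0.0217 under the block. The region upstream of the start, chr5:170301741-170304880, went from 0.426, 0.508 and 0.481 to 0.693, 0.75 and 0.594, an increase of 0.52 in log2 (SE 0.12) with a limma adjusted p of 0.059, or 0.0354 under the block. As fitted here with no block none of these 3 passed 0.05, while under other settings each passed in at least 1 (for example the intragenic region at 0.0453 with regions called in at least 4 of 6 libraries). Without treated replicate 3 the intragenic and upstream regions passed, with adjusted p of 0.0414 and 0.0185 by limma. Of all REH H3K4me2 regions, 1.42% were called higher by limma, and 2.47% with the block.

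The difference at the LCP2 locus of REH lay in the length of DNA called more than in the signal per base. As mean signal per called base, the log2 changes were 0.12 at the start, −0.05 in the intragenic region and 0.19 upstream. The REH H3K4me2 libraries had depths of 18.8, 15.4 and 13.7 M mapped reads untreated and 20.2, 18.2 and 22.8 M treated. The part of this depth gap in the REH H3K4me2 results, those of PLEK included, was not tested. The LCP2 start signal in REH was 1.70 ± 0.299 median peaks untreated and 2.64 ± 0.618 with bryostatin (SD, n = 3 each, exact permutation p = 0.1). In NALM6 the start region of LCP2 had H3K4me2 totals of 0.658, 0.63 and 0.572 untreated and 0, 0.755 and 0.844 treated. The intragenic region of NALM6 changed by −0.01 on the log2 scale (SE 0.22, limma adjusted p = 0.999).

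**Figure D2:**
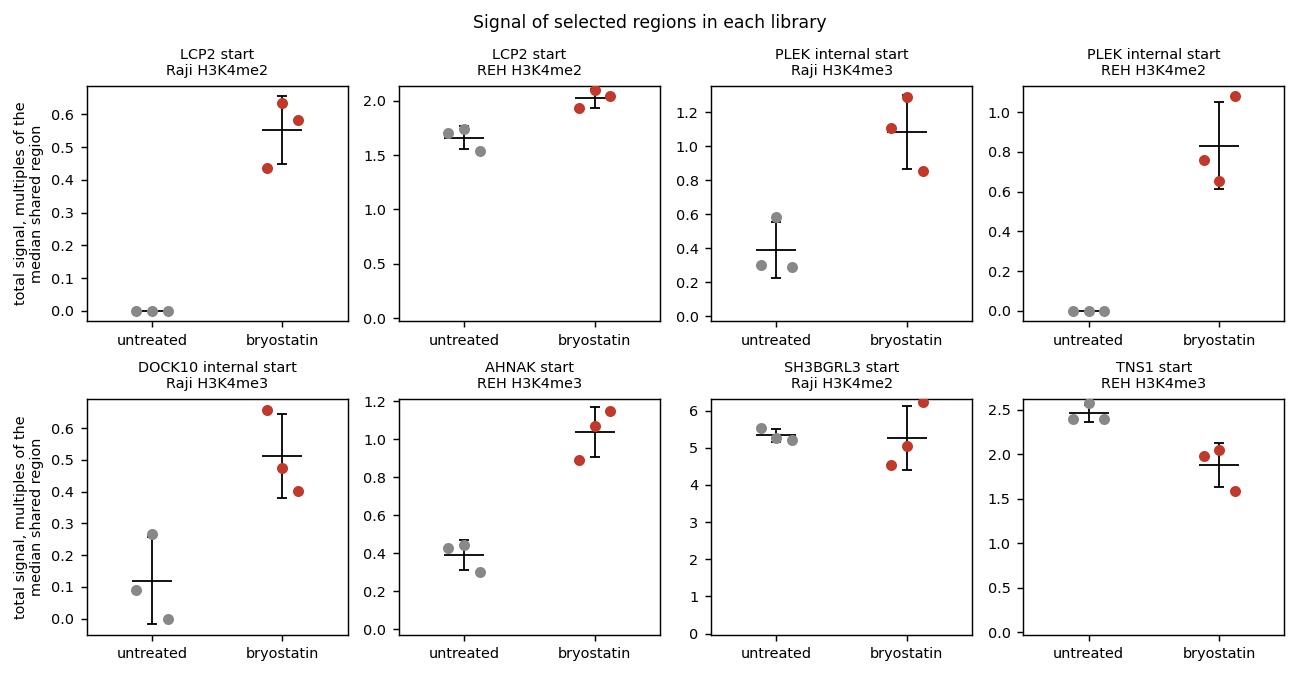
Region totals in each library, in multiples of the median region shared by the 6 libraries of that line and mark, with untreated and bryostatin libraries side by side and bars for the mean and SD of 3. Points at 0 are libraries with no called peak. The PLEK internal start in Raji and the AHNAK start in REH separate the groups at totals above 0, and the LCP2 start in Raji separates them from 0.

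PLEK has 2 annotated starts, the 5′ start of its coding transcript at chr2:68365282 and an internal start of a retained-intron transcript at chr2:68387942. The difference with bryostatin was seen above all at the internal start. In Raji, where PLEK was not chosen, the H3K4me3 region chr2:68387221-68392990 had totals of 0.304, 0.583 and 0.291 untreated and 1.11, 1.29 and 0.857 with bryostatin. The heights of these peaks were 656, 855 and 504 RPKM untreated and 1827, 1873 and 1307 treated. The treated and untreated libraries did not overlap on either measure.

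That is an increase of 1.52 in log2 (SE 0.26) with a limma adjusted p of 0.0893, and of 1.04 as mean signal per called base. Under the replicate block the adjusted p became 0.000485. Without the block limma called 0.155% of Raji H3K4me3 regions higher and with it 1.06%. By limma the adjusted p was 0.956 for maximum signal, 0.453 for mean signal per base and 0.00108 without centring, and it ran from 0.0189 (without untreated replicate 2) to 0.415 (without treated replicate 2) when 1 library was left out.

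At the 5′ start of PLEK, the Raji H3K4me3 region chr2:68361391-68370980 went from 1.3, 1.52 and 1.3 to 1.79, 1.75 and 1.54, again without overlap. The increase there was 0.31 in log2 (SE 0.11, with a limma adjusted p of 0.755, or 0.119 under the block), a smaller value than at the internal start. The difference between both starts was not tested.

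H3K4me2 over PLEK in Raji merged into 1 region, chr2:68361731-68395190, that spanned most of the gene. Its totals were 2.72, 1.07 and 3.13 untreated and 5.32, 6.78 and 3.11 treated, and its called length was 9050, 2270 and 14940 bp untreated and 26200, 33130 and 9340 bp treated. Treated replicate 3 lay among the untreated libraries. The log2 change was 1.21 (SE 0.36, limma adjusted p = 0.583), and 0.24 as mean signal per called base. By limma none of 9316 Raji H3K4me2 regions was called, and 626 passed an unadjusted p under 0.05. The untreated Raji H3K4me2 libraries had depths of 8.31, 6.7 and 13.9 M mapped reads against 15.6, 18.8 and 16.1 M in the treated ones, with median peak widths of 1200, 1630 and 2640 bp against 2210, 2980 and 2230 bp. The part of this depth gap in the Raji H3K4me2 results was not tested.

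In REH, on which PLEK was chosen, the internal start gained H3K4me2. The region chr2:68387011-68391800 was not called in the untreated libraries and had totals of 0.762, 0.655 and 1.08 with bryostatin, all above the smallest called totals of the untreated libraries (0.194, 0.321 and 0.328). Of all REH H3K4me2 regions, 0.0644% were called in the 3 treated and in no untreated library. The 5′ start of PLEK was marked by H3K4me2 in 1 treated REH library, at 0.482. No REH library had an H3K4me3 peak at either start, and NALM6 had no H3K4me2 or H3K4me3 peak at either.

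DOCK10 was marked at an internal start, chr2:224947065, and at its outermost start, chr2:225042468, and the lines differed in which was used for H3K4me3. The outermost start carried H3K4me3 in 3 untreated and 2 treated NALM6 libraries and in all 6 REH libraries, and in none of the 6 Raji libraries. Within 1 kb, the internal start carried H3K4me3 in 1 untreated and 3 treated Raji libraries, in 2 treated REH libraries and in no NALM6 library.

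In Raji, where DOCK10 was not chosen, the H3K4me3 region chr2:224943491-224947540 at the internal start, which reaches beyond 1 kb and was called in 2 untreated libraries, had totals of 0.091, 0.268 and 0 untreated and 0.658, 0.474 and 0.403 with bryostatin. Every treated library lay above every untreated one. The DOCK10 start signal there was 0.101 ± 0.176 median peaks untreated and 0.601 ± 0.225 treated (SD, n = 3 each, exact permutation p = 0.1). Since 1 untreated library had no peak, the region was not in the limma fit of regions called in all 6 libraries. In the fit of regions called in at least 4 of 6, which leaves out the library with no peak, it differed by 1.68 in log2 (SE 0.41) with a limma adjusted p of 0.427. The H3K4me2 region beside it, chr2:224941161-224946350, had totals of 0.391, 0.717 and 0.72 untreated and 1.01, 1.1 and 0.423 treated, which overlap, a difference of 0.41 in log2 (SE 0.35) with a limma adjusted p of 0.8.

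In REH, the line of its choice, the internal start of DOCK10 had H3K4me3 totals of 0, 0.254 and 0.285 with bryostatin and no call in the untreated libraries, of which replicate 2 had a smallest called total of 0.44. H3K4me2 at this start was 0.653, 0.463 and 0 untreated and 0.93, 0.603 and 0.761 treated. The outermost start of REH went from 0.734, 0.691 and 0.59 to 0.791, 0.761 and 0.784 for H3K4me3 (log2 change 0.22) and from 1.27, 1.09 and 1.18 to 1.17, 1.19 and 1.36 for H3K4me2 (log2 change 0.07). The treated libraries lay above the untreated ones for H3K4me3 at the outermost start, and H3K4me2 there overlapped between groups.

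In NALM6 the outermost start of DOCK10 had H3K4me2 totals of 1.44, 0.953 and 0.789 untreated and 1.33, 1.06 and 0.955 treated (log2 change 0.10, SE 0.30, limma adjusted p = 0.999). The summed H3K4me2 start signal of DOCK10 in NALM6 was 1.58 ± 0.479 untreated and 2.36 ± 0.195 treated (SD, n = 3 each, exact permutation p = 0.1), but the replicate 1 libraries of NALM6 carry another scaling than the rest, and the groups overlapped under 5 other ways of summing the signal. By limma none of 4128 NALM6 H3K4me2 regions was called, of which 56 passed an unadjusted p under 0.05. The internal start of NALM6 had H3K4me2 in 1 untreated library, at 0.379, and in 2 treated libraries, at 0.407 and 0.439.

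**Figure D3:**
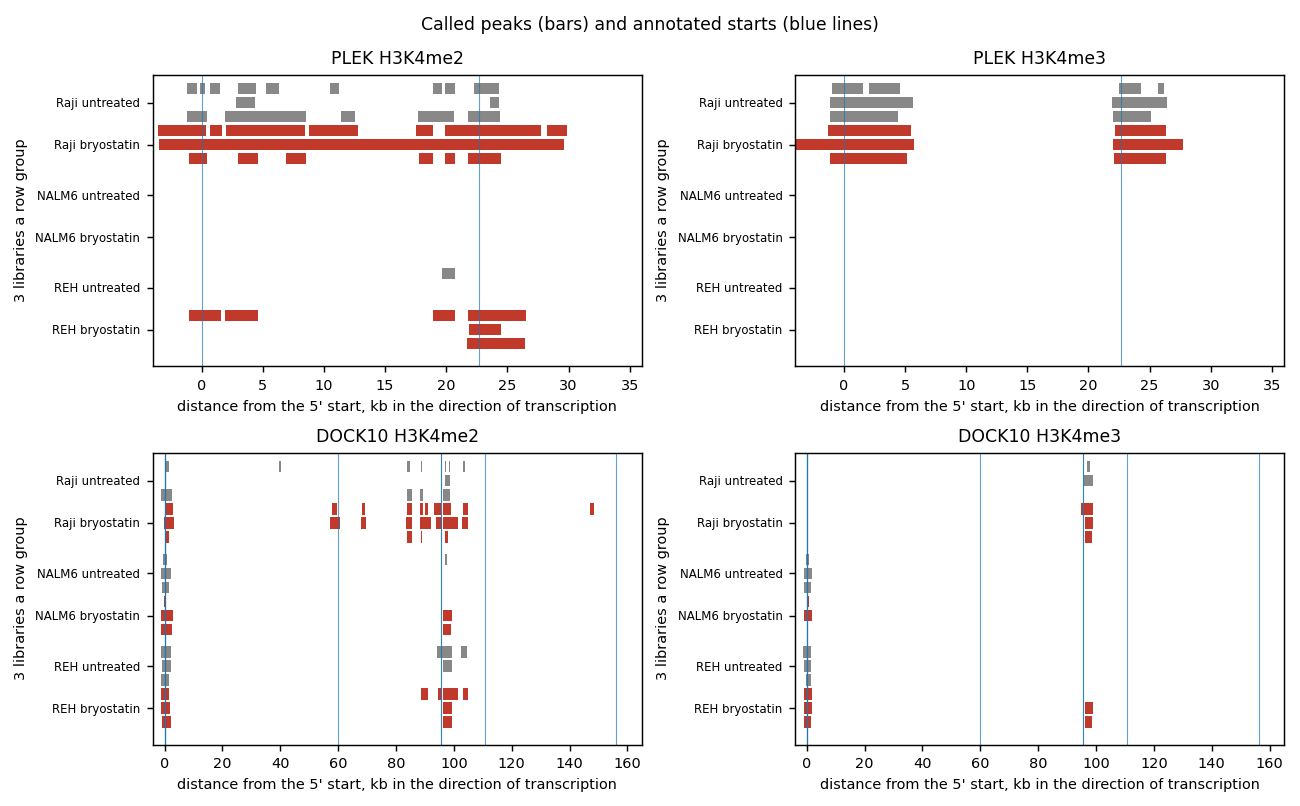
Called H3K4me2 and H3K4me3 peaks over PLEK and DOCK10, as bars in 1 row for each library, against the distance from the 5′ start in kb, with untreated libraries in grey, bryostatin libraries in red and annotated starts as blue lines. Bars lie over the internal PLEK start in the 3 treated REH H3K4me2 libraries and in no untreated one, and the DOCK10 H3K4me3 bars lie at the internal start in Raji and at the outermost start in NALM6 and REH, with 2 treated REH libraries at both.

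AHNAK showed the largest H3K4me3 change among the member regions called in all 6 libraries of REH. Its start region, chr11:62544051-62547670, over the first exons of its shorter transcripts, had totals of 0.426, 0.445 and 0.299 untreated and 0.892, 1.07 and 1.15 with bryostatin. The log2 change was 1.43 (SE 0.15) and 1.25 as mean signal per called base, so the signal per base was higher as well. Among all REH H3K4me3 regions, limma called 0.815% higher and 0.857% lower. The values are a description, since REH was treated as used in the choice of AHNAK.

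H3K4me2 at the same AHNAK start in REH, chr11:62541781-62547700, was 3.91, 4.22 and 3.89 untreated and 4.16, 4.14 and 4.72 treated (log2 change 0.11, SE 0.09), and the groups overlapped. The distal start at chr11:62556235 had H3K4me2 in its region chr11:62554661-62558560 of 0.819, 1.04 and 0.669 untreated and 1.31, 1.26 and 1.03 treated (log2 change 0.52, SE 0.14), and the lowest treated library lay just below the highest untreated one.

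In Raji and NALM6 the distal start of AHNAK carried H3K4me2 in 11 of 12 libraries, and the inner starts carried it in 1 untreated and 2 treated Raji libraries and in no NALM6 library. The inner Raji region had totals of 0.191, 0 and 0 untreated and 0.166, 0.222 and 0 treated. The Raji region chr11:62554901-62561280 had totals of 0.827, 0.84 and 0.849 untreated and 0.596, 0.793 and 0.589 treated, every treated library below every untreated one (log2 change −0.36, SE 0.17). The summed H3K4me2 start signal of AHNAK in Raji was 1.43 ± 0.666 median peaks untreated and 1.57 ± 0.731 treated (SD, n = 3 each), with overlap. The NALM6 region had 0.424, 0.686 and 0.943 untreated and 0, 0.754 and 0.763 treated. AHNAK H3K4me3 at the distal start was called in 1 untreated and 1 treated Raji library, at 0.028 and 0.0348, and no AHNAK start had H3K4me3 in NALM6.

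SH3BGRL3 was marked at its start in nearly every library. Its start region lies in a broad H3K4me2 domain that also covers the overlapping gene UBXN11, so signal cannot be assigned to SH3BGRL3 alone. In Raji, where it was not chosen, the H3K4me2 region chr1:26278191-26292180 had totals of 5.54, 5.26 and 5.21 untreated and 4.54, 5.06 and 6.22 treated (log2 change −0.03, SE 0.13, limma adjusted p = 0.97). H3K4me3 was 0.482, 0.622 and 0.579 untreated and 0.409, 0.719 and 0.582 treated (log2 change −0.01, SE 0.20, limma adjusted p = 0.998). The groups overlapped for both marks. The summed H3K4me2 start signal in Raji had a higher treated mean, 3.30 ± 0.683 median peaks untreated and 6.62 ± 3.28 treated (SD, n = 3 each, exact permutation p = 0.2). The groups overlapped there as well, so the size of the change depended on the measure.

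In REH the SH3BGRL3 start had a log2 change of 0.20 (SE 0.09) for H3K4me2 and −0.07 (SE 0.09) for H3K4me3, and in NALM6 of −0.26 (SE 0.44) for H3K4me2, all descriptions. The NALM6 H3K4me2 totals were 2.11, 4.17 and 4.28 untreated and 1.46, 3.82 and 3.93 treated, with replicate 1 the lowest of each group. The summed H3K4me2 start signal went from 1.83 ± 0.403 to 4.92 ± 3.03 median peaks in NALM6. In REH it went from 5.36 ± 2.48 to 7.84 ± 2.61, and the groups overlapped in both lines (SD, n = 3 each).

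TNS1 was marked by H3K4me3 in REH alone, in all 6 libraries, and the mark was lower with bryostatin. The region chr2:218007081-218012330 had totals of 2.4, 2.57 and 2.4 untreated and 1.98, 2.05 and 1.59 treated, with no overlap (log2 change −0.40, SE 0.09). H3K4me2 over the same starts, chr2:218002441-218023540, was 9.2, 10.2 and 9.72 untreated and 9.18, 9.88 and 7.56 treated (log2 change −0.14, SE 0.12). At the outermost start, chr2:218031291-218035750, it was 1.39, 1.59 and 1.47 untreated and 1.24, 1.28 and 1.15 treated (log2 change −0.28, SE 0.09), without overlap. The summed H3K4me3 start signal of TNS1 in REH was 3.15 ± 0.642 median peaks untreated and 2.24 ± 0.522 treated (SD, n = 3 each), and there the groups overlapped.

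One TNS1 region appeared with bryostatin in REH, the intronic H3K4me2 region chr2:217927521-217930100 whose sequence is printed above. It was not called in the untreated libraries and had totals of 0.372, 0.399 and 0 in the treated ones. In NALM6 an H3K4me2 region at a TNS1 start was called in 1 untreated library, at 0.33, and in 2 treated libraries, at 0.253 and 0.257. Raji had no H3K4me2 or H3K4me3 peak at a TNS1 start.

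The H3K4me2 and H3K4me3 regions found within 50 kb of the ANKRD2 start lay in introns of its neighbour UBTD1, the Raji one 28409 bp from that start. Whether ANKRD2 was chosen on such regions is not known. In Raji the H3K4me2 region chr10:97541931-97544090 was not called in the untreated libraries and had totals of 0.147, 0.129 and 0 in the treated ones, which is below the smallest called total of 2 untreated libraries. In REH the matching region was called in 1 treated library, at 0.406. In NALM6 another UBTD1 region, chr10:97560091-97562310, was called in no untreated library and had H3K4me2 totals of 0, 0.272 and 0.29 in the treated ones, and H3K4me3 there was called in 2 untreated libraries, at 0.109 and 0.084, and in 1 treated library, at 0.147. These regions were tied to ANKRD2 by distance alone.

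**Figure D4:**
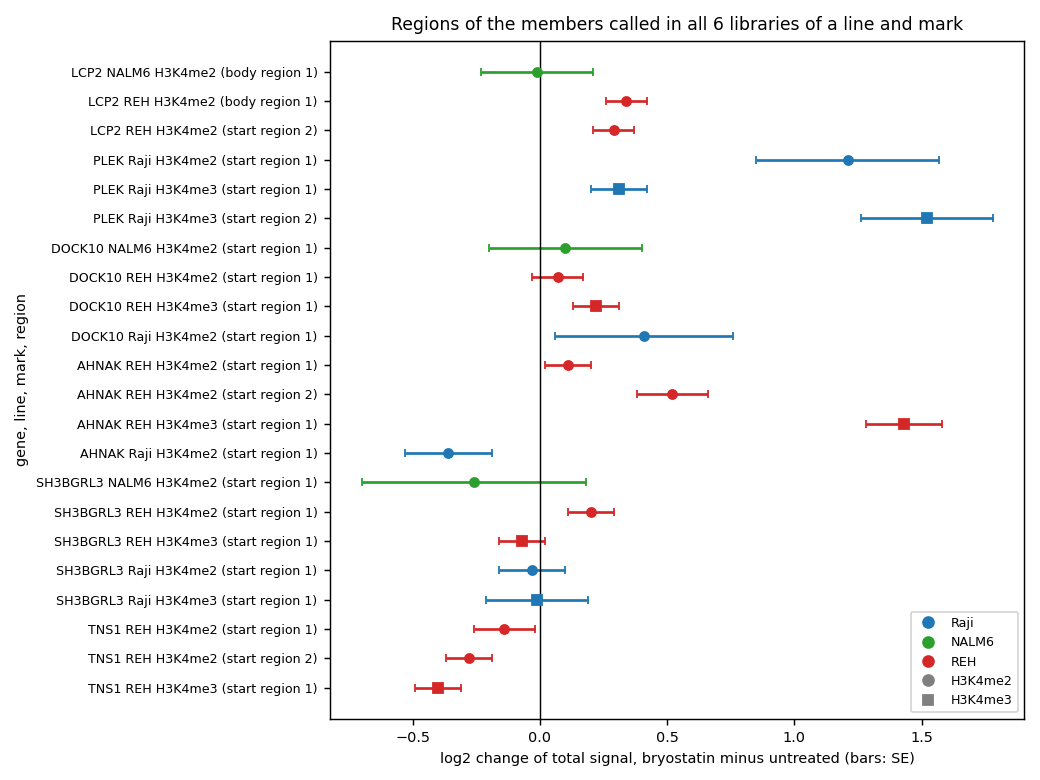
Log2 change with bryostatin of each member region called in all 6 libraries of its line and mark, with bars of 1 SE from limma, colours for the lines and regions numbered by position. Values in lines on which a gene was chosen are descriptions. The PLEK internal start in Raji (start region 2), at 1.52, and the AHNAK start in REH, at 1.43, lie farthest to the right, and the TNS1 H3K4me3 start in REH lies to the left of 0 at −0.40.

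The untreated lines carried different members. Untreated libraries of a line on which a member was chosen entered that choice, so only LCP2 between NALM6 and REH, and PLEK, DOCK10 and TNS1 between Raji and NALM6, are free of it, and the rest is description. For H3K4me2, PLEK had a start peak in all 3 Raji libraries and in no REH library, while TNS1 and LCP2 had the reverse pattern. That is 3 of the 6 members with a start peak in these libraries, beside 12.4% of all such genes, and the absence of LCP2 from untreated Raji and of PLEK from untreated REH was part of their choice. Between Raji and NALM6, PLEK was marked in Raji alone and LCP2 in NALM6 alone, 2 of 6 members beside 10.8% of genes. Between NALM6 and REH 0 of 5 members differed in this way, beside 13.4%. For H3K4me3, PLEK was marked in Raji and TNS1 in REH when those 2 lines were compared (2 of 6 members, 7.76% of genes), PLEK in Raji against NALM6 (1 of 5, 7.5%), and TNS1 and AHNAK in REH against NALM6 (2 of 5, 3.28%).

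Of 12 differences between untreated lines in member regions called in all 6 libraries, 3 were past 0.05 by limma, and 2 of them, both at LCP2, did not involve a line used in the choice. The LCP2 H3K4me2 start region was higher in REH than in NALM6 by 0.88 on the log2 scale (SE 0.15, limma adjusted p = 0.0105), and the LCP2 intragenic region by 0.58 (SE 0.14, limma adjusted p = 0.0344), in a comparison in which 11.4% of all regions were called. As mean signal per called base neither was called, and the LCP2 start turned to −0.18. The SH3BGRL3 H3K4me3 region differed by 0.68 (SE 0.13) between REH and Raji, where 51.3% of all regions were called, and is a description since REH was used in its choice.

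H3K27me3 was not used in the choice. Over TNS1 with 3 kb flanks it was called in all 6 Raji and all 6 NALM6 libraries and in none of the 6 REH libraries, the line in which TNS1 carried H3K4me3. This pattern was found in 0.057% of all genes with an H3K27me3 peak. That share was not matched for gene length, and TNS1, which spans 234395 bp, offers more room for a peak than a shorter gene. Nor was the share limited to genes with H3K4 peaks in REH, the line on which TNS1 was chosen, so nothing is read from it. In Raji the TNS1 H3K27me3 signal was 0.756, 44.7 and 187 median peaks untreated and 16.0, 4.65 and 286 with bryostatin (exact permutation p = 0.8). In NALM6 it was 5.72, 79.8 and 24.0 untreated and 2.35, 96.2 and 204 treated (exact permutation p = 0.5). The spread within a group was larger than any difference between groups, and the H3K27me3 libraries held from 590 to 101702 peaks, so the summed signal depended on how much was called.

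**Figure D5:**
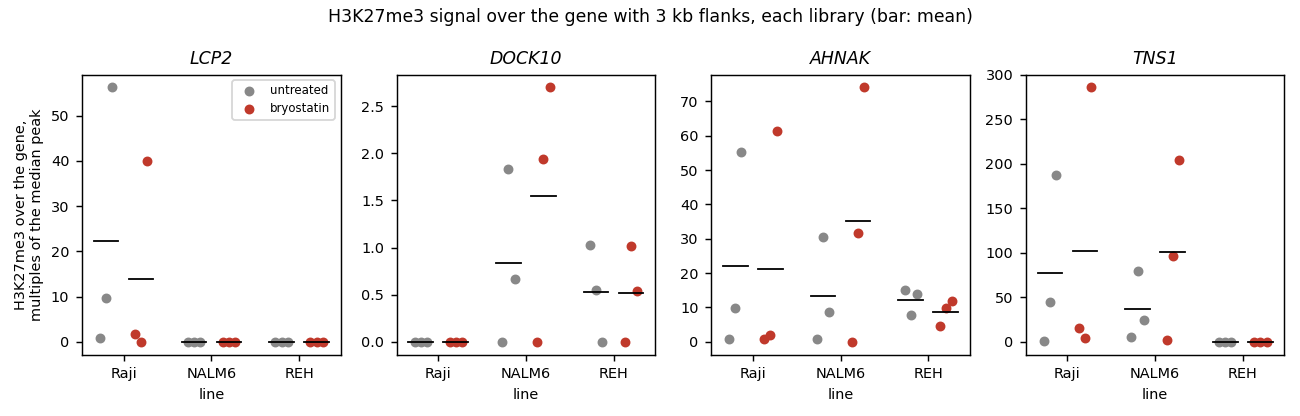
Summed H3K27me3 signal over LCP2, DOCK10, AHNAK and TNS1 with 3 kb flanks, in multiples of the median peak of the library, with a point for each library by line and treatment and a line for the mean. TNS1 has signal in all Raji and NALM6 libraries and is at 0 in the 6 REH libraries, and replicates of a group spread widely.

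AHNAK carried H3K27me3 in all 6 Raji, 5 NALM6 and all 6 REH libraries. In REH it had H3K4me3 and H3K27me3 at the same starts, which in a mixed population cannot be placed on the same cells or alleles. The AHNAK H3K27me3 signal in REH was 15.0, 7.78 and 13.9 median peaks untreated and 4.67, 9.81 and 11.9 treated, or 12.2 ± 3.9 against 8.79 ± 3.71 (SD, n = 3 each, exact permutation p = 0.3). The region at the start, chr11:62542141-62550880, differed by −1.37 in log2 (SE 0.37) with a limma adjusted p of 1, and limma called none of 8324 REH H3K27me3 regions, of which 216 passed an unadjusted p under 0.05. AHNAK in Raji had 0.762, 9.83 and 55.3 untreated and 0.739, 1.91 and 61.3 treated (exact permutation p = 0.9).

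LCP2 carried H3K27me3 in 5 of 6 Raji libraries and in none of NALM6 or REH, the 2 lines in which its start had H3K4me2 before treatment. Its Raji signal was 0.774, 9.76 and 56.3 untreated and 1.63, 0 and 40.0 treated (exact permutation p = 0.6). DOCK10 carried H3K27me3 in 4 of 6 NALM6 and 4 of 6 REH libraries, at the outermost start that also had H3K4me3 there, and in no Raji library. PLEK and SH3BGRL3 had it in 1 Raji library each and ANKRD2 in 1 NALM6 library. None of the 21 exact tests of H3K27me3 reached the smallest p of 0.1.

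The other genes of the same pathways were counted from fixed lists. Among 16 adaptor and antigen receptor signalling genes, which act beside SLP-76, 5 to 11 had a start region called in all 6 libraries of a comparison, and limma called 0 of them with bryostatin in any line for H3K4me2 or H3K4me3. At an unadjusted p under 0.05 there were 0 to 2 of them in a comparison. Over all regions limma called so few (1.42% higher for H3K4me2 and 0.815% for H3K4me3 in REH, 0.155% for H3K4me3 in Raji) that lists of this size cannot be told from the rest. The medians of their log2 changes ran from −0.03 to 0.07, beside −0.03 to 0.00 for all regions. Among 30 actin and adhesion genes, LCP1, which encodes the actin-bundling protein plastin, was higher in REH for H3K4me2 (log2 change 1.14, SE 0.24, limma adjusted p = 0.0271, 1 of 22 genes measured). ZYX, which encodes the focal adhesion protein zyxin, was higher in REH for H3K4me3 (log2 change 0.32, SE 0.07, limma adjusted p = 0.0338, 1 of 16 genes). No gene of that list was called lower in any line, and none was called in Raji or NALM6, where 0 to 5 passed an unadjusted p under 0.05.

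The lines carried the marks of their labels. H3K4me3 start peaks were called at PAX5, EBF1 and CD79B in all 6 libraries of every line, and at MS4A1 and CR2 in all 6 Raji libraries and in no NALM6 or REH library. DNTT and IGLL1 were marked in NALM6 and REH and not in Raji. The T-cell genes CD2, CD3D and CD3E and the myeloid genes CD14 and LYZ had no H3K4me3 start peak in any library, and CSF1R had 1 in 1 REH library. Depth ranged from 5.12 to 47.9 M mapped reads in the 48 libraries from which they could be read. The 6 replicate 1 libraries of NALM6 have another, unstated scaling and short peaks, so that NALM6 values are the least certain.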

How the data were processed

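Cut&Tag libraries of 3 lines, 2 treatments and 3 marks were used, 54 in all. The IgG samples, 18 in number, were not analysed here. According to the methods and the submitters' processing notes, the authors trimmed reads with Trim Galore, aligned them to hg38 with Bowtie2, scaled coverage as RPKM and called stringent SEACR peaks in each library on its own (versions not given in the sources used here). The deposited values are the total and the maximum signal of each peak. In 48 libraries they lie on 10 bp bins of RPKM, and the 6 NALM6 replicate 1 libraries have another scaling that is not stated. The study's DESeq2 needs counts and was not used.

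Peaks of the 6 libraries of a comparison that overlapped by 1 bp or more were merged. Log2 total signal of regions called in all 6 was centred on the median region and fitted with limma 3.58.1 (trend, R 4.3.3, two-sided, Benjamini-Hochberg at 0.05 over all regions). The script was tested on simulated data. Gene signal was compared by exact two-sided permutation tests in Python 3.11.15 with scipy 1.17.1. A library with no called peak has a value of 0, which means below what SEACR called. All 7 members are named, with regions within 1 kb of a start, over the gene with 3 kb flanks or within 50 kb of a start. The members and the lists were chosen with earlier results of these data known.

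Replicate numbers are shared across treatments in the labels. Deviations of same-numbered libraries from their group means correlated by 0.48 to 0.54 in Raji H3K4me3, 0.13 to 0.21 in REH H3K4me2, 0.18 to 0.31 in REH H3K4me3 and 0.40 to 0.68 in the NALM6 libraries of the 3 marks. These were taken as paired, and the value with the replicate block is given beside a result where it changes the call. In NALM6 the unlike-numbered replicates 2 and 3 also correlated, by 0.35 to 0.57, so the check does not show pairing in that line. The exact tests took no account of pairing. The Raji H3K4me2, Raji and REH H3K27me3 libraries and the untreated lines did not pass this check. Depth (5.12 to 47.9 M mapped reads) was recovered from the value of 1 read in the RPKM files. Alternatives were another signal (maximum, mean per base), other centring, windows and overlaps, the stronger 0.5 of peaks, equal numbers of peaks and leaving out each library. One region near a member is not reported here.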

Additional observations from a re-analysis of the deposited data

How the results depend on the processing

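Of 453 alternative values for 37 results, 354 stayed the same, 15 lost significance, 12 gained it, 15 changed direction and 57 counts or descriptive values moved. For tested regions, the same means that direction and side of the threshold were kept. For counts and untested regions it means a shift within a fixed margin, and for the AHNAK H3K27me3 differences the same direction. The cause was not tested for any of the changes.

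The PLEK internal start in Raji (log2 change 1.52) passed the threshold with the replicate block (1.52, adjusted p = 0.000485 by limma) and without centring (1.78, adjusted p = 0.00108), and ran from 1.35 to 1.85 with each library left out. The LCP2 intragenic region of REH (0.34) turned to −0.05 as mean signal per base and passed with the block (0.34), with quantile normalization (0.38), with regions in at least 4 of 6 libraries (0.34) and with the upper 0.5 of peaks (0.37), ranging from 0.31 to 0.37 with a library left out (past the threshold without REH bryostatin replicate 3). The LCP2 start of REH passed with the upper 0.5 of peaks (0.67), with a range of 0.24 to 0.32 with a library left out. The LCP2 upstream region of REH passed with the block (0.52) and without a trend (0.52), with a range of 0.45 to 0.60 (past the threshold without REH bryostatin replicate 3). With the block a Raji H3K4me3 region 37069 bp from SH3BGRL3 also passed (0.70, adjusted p = 0.00578 by limma, or 0.487 without it). That region holds starts of UBXN11 and CD52. The AHNAK H3K27me3 start region of REH passed with the block as well (−1.37, adjusted p = 0.00068 by limma), but its libraries did not pass the pairing check. The block changed no other tested call of a bryostatin effect in the member regions.

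The SH3BGRL3 changes in Raji lay near 0 and changed sign. For H3K4me2 the value was 0.06 by maximum signal, 0.13 per base and 0.21 without centring, and −0.15 to 0.07 with a library left out. For H3K4me3 it was 0.00 per base, 0.25 without centring and 0.02 with quantile normalization, and −0.19 to 0.21 with a library left out.

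Between untreated lines, the LCP2 intragenic region was not called per base (0.49), without centring (2.05) or with the replicate block (0.58), nor in 5 of 7 fits with a library or replicate left out (0.53 to 0.59). The LCP2 start was not called by maximum signal (0.01) or without centring (2.35), and was −0.18 per base, with a range of 0.82 to 0.96 (lost without REH untreated replicate 1 or 2). SH3BGRL3 was not called by maximum signal (0.23), per base (0.37) or without centring (0.86), with a range of 0.56 to 0.77. The count of called member regions, 3, was 1 by maximum signal, 0 per base, 0 without centring, 11 with regions in at least 4 of 6 libraries and 1 with the upper 0.5 of peaks, and 1 to 9 with a library left out, the 9 being without NALM6 untreated replicate 1, 5 without Raji untreated replicate 2 and 1 without REH untreated replicate 1 or 2. The replicate numbers of the lines share only a number.

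The count of members with start signal higher in every treated library in Raji H3K4me2, 1, was 2 by maximum signal, 3 without scaling, 2 scaled by shared regions, 2 with equal numbers of peaks and 1 to 4 with a library left out, the 4 being without Raji bryostatin replicate 3 and 3 without Raji untreated replicate 1. In NALM6 H3K4me2 it was 0 in place of 1 by maximum signal, with clipped peaks, without scaling, scaled by shared regions and with equal numbers of peaks, and 1 to 3 with a library left out (3 without bryostatin replicate 1). In REH H3K4me2 the 2 became 1 by maximum signal, 1 with clipped peaks and 4 scaled by shared regions. In Raji H3K4me3 the 2 became 1 by maximum signal and 0 with clipped peaks, in NALM6 H3K4me3 the range was 0 to 1 (1 without bryostatin replicate 3), and in REH H3K4me3 the 1 became 2 without scaling and 2 scaled by shared regions, with a range of 1 to 3 (3 without bryostatin replicate 1, 2 without untreated replicate 1).

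Members marked in one untreated line alone numbered 2 between Raji and NALM6 for H3K4me2, and 1 with a 0.5 kb window, 1 with an overlap of at least 200 bp and 0 with the upper 0.5 of peaks. Between NALM6 and REH the 0 became 1 with equal numbers of peaks and 2 with the upper 0.5, with a range of 0 to 1. For H3K4me3 the Raji and NALM6 count of 1 became 2 with equal numbers and 2 with the upper 0.5 of peaks (range 1 to 2), and the NALM6 and REH count of 2 became 1 with the upper 0.5. The upper 0.5 of peaks left 0 of the 2 gained member regions of Raji (range 2 to 5, the 5 without bryostatin replicate 3) and 0 of the 1 of REH (range 1 to 2, the 2 without bryostatin replicate 3). LCP2 had H3K27me3 in 2 in place of 5 Raji libraries with equal numbers of peaks. The AHNAK H3K27me3 difference in Raji, −0.628, ran from −20.6 to 16.0, with 16.0 without untreated replicate 3, 9.67 without bryostatin replicate 1 and 9.08 without bryostatin replicate 2.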
